A study of Sus scrofa with 6 samples.

Results

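The genes described here are those whose annotation in the deposited table holds the term for rRNA processing, without genes whose name starts with RPL, RPS or MRP. The term stood on 140 of the 18007 genes, and 8 were left out by name, which left 132 members. The name filter did not remove every ribosomal protein, because 38 members are listed by identifier only and 32 of them carry the protein description of a 40S or 60S ribosomal protein. The other 100 members are called factors below, and the 32 are given apart from them.

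The RNA came from 3 lines of porcine embryonic fibroblasts (PEF5, PEF7 and PEF8) and from the piPSC line derived from each (piPSC5, piPSC7 and piPSC8), with 1 library per line. The PEFs were grown from the ear tips of embryos taken from a Meishan sow on day 90 after mating with a Longwhite boar (Large White in the study's methods), so all lines share their parents. For the piPSCs, lentivirus brought in Oct4, Sox2, Klf4 and cMyc (OSKM) under a doxycycline-inducible promoter, and picked colonies were expanded on mouse feeder cells in medium with doxycycline. The change of cell state, the factors, the medium and any RNA of the feeder cells came together in the piPSC group and cannot be told apart.

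Ribosomal RNA is made in the nucleolus as a long precursor that carries the 18S, 5.8S and 28S rRNAs with spacers between them. The small subunit (SSU) processome cuts and folds the 18S part, and a separate set of factors matures the 60S subunit. Most small nucleolar ribonucleoproteins (snoRNPs) guide the modification of nucleotides, and the exosome and other nucleases trim the ends. Cells that grow and divide quickly, stem cells among them, are known for a high output of this pathway.

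Depth ran from 11010629 to 17836510 fragments per library, as recovered from the smallest steps of the FPKM values (fragments per kilobase of gene, scaled to library size). Of 13 fibroblast markers, 12 fell in the piPSCs, and their summed level was 7324, 9339 and 7087 FPKM in PEF5, PEF7 and PEF8 against 474, 425 and 258 FPKM in the piPSCs. Of the 12 pluripotency markers 8 are in the table by symbol, and NANOG, SALL4, ESRRB, UTF1 and ZFP42 lay under 0.3 FPKM in all 6 libraries, while KLF4 fell. SOX2 and LIN28B lay under 0.04 FPKM in each PEF library, SOX2 reached 3.01, 2.49 and 0.129 FPKM and LIN28B 2.51, 0.281 and 8.90 FPKM in piPSC5, piPSC7 and piPSC8, and neither passed (limma, adjusted p = 0.0626 and 0.0667). The epithelial markers CDH1 and EPCAM lay under 0.2 FPKM, as did the endothelial CDH5 and the cartilage marker COL2A1. Of the other lists, the summed level ran from 11.6 to 37.1 FPKM in the PEFs and from 0.789 to 9.57 in the piPSCs for 7 epithelial genes, from 10.5 to 22.9 and from 1.76 to 3.56 for 4 immune genes, and from 0.0814 to 0.755 and from 0.199 to 14.2 for 4 skeletal muscle genes. It ran from 1.09 to 12.5 and from 0.535 to 4.37 FPKM for 6 cartilage genes, from 3.04 to 3.35 and from 4.74 to 9.12 for 5 keratinocyte genes, and from 0.513 to 2.59 and from 0.0382 to 1.15 for 5 endothelial genes. DES, a muscle gene, was at 14.2 FPKM in piPSC7 and 2.51 FPKM in piPSC8, and CD14, a myeloid gene, at 9.20, 21.9 and 13.1 FPKM in the PEFs. The part of such cells in the results was not tested. The study describes its lines as male, and the Y-linked DDX3Y had 0 fragments in all 4 libraries of lines 5 and 7, against 3439 in PEF8 and 4207 in piPSC8. Each line is therefore also described by itself below.

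The rRNA processing factors stood higher in the piPSCs across nearly all roles. Of the 132 members, 111 had a mean of at least 0.5 FPKM and were tested. Limma on log2(FPKM + 1) called 64 of them (57.7%) higher in piPSCs, which takes an adjusted p below 0.05 and a change of 2-fold or more, where 20.2% of the 12428 genes tested were called higher. It called 1 member lower, where 16.7% of all genes were called lower. The median log2 fold change was 1.25 over the members tested and 0.20 over all genes tested. The p-values measure the spread among these 3 lines per group, and in bulk RNA more cells of a kind and more RNA per cell cannot be told apart.

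Of the 100 factors 96 were tested, 54 (56.2%) were called higher and 1 lower, and their median log2 fold change was 1.19. With no fold threshold, 73 factors passed an adjusted p under 0.05 as higher (limma), beside 30.3% of all genes, and 1 as lower, beside 21.5%. In 75 factors every piPSC library lay above every PEF library, and in 5 the order was the opposite, where 37.3% and 26.8% of all genes had no overlap in these directions. The 4 untested factors lay low in all libraries: UBXN10 at no more than 0.0894 FPKM, a second gene described as PA2G4 at no more than 0.163, FAM57A between 0.257 and 0.678, and FBXO16 between 0.0677 and 0.746. FAM57A carries the protein description of GEMIN4, whose gene it overlaps on the opposite strand, and MFSD10 carries that of NOP14, with which it shares 19732 bp on the same strand.

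**Figure D1:**
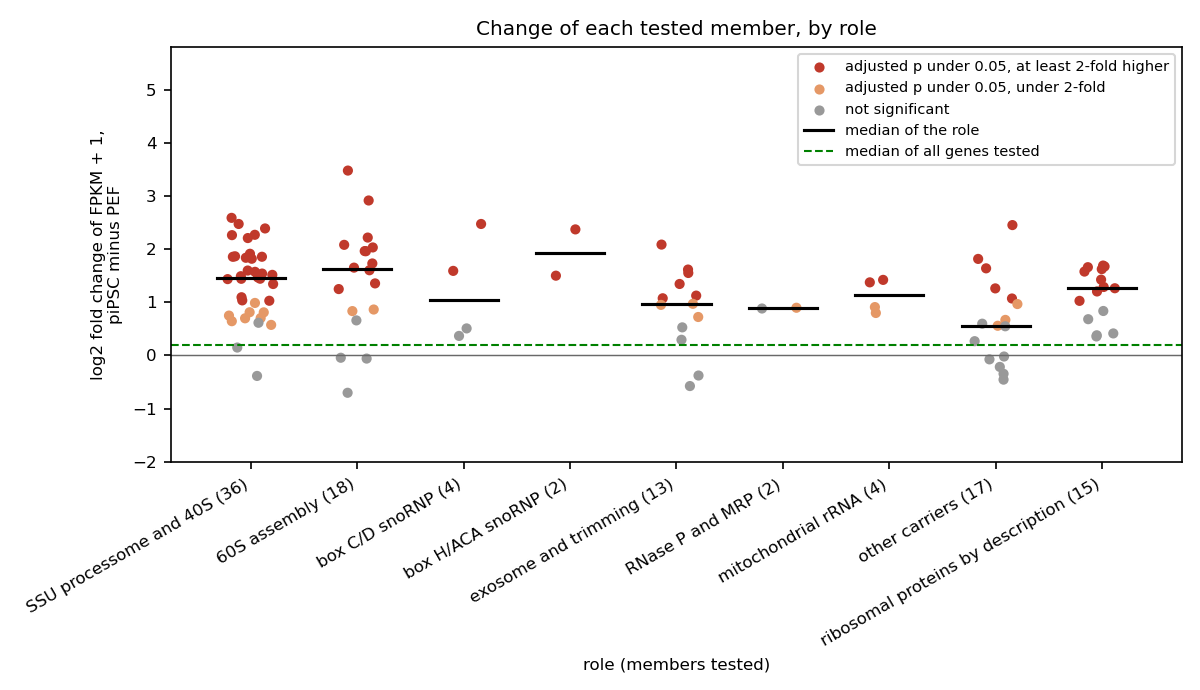
Each point is a tested member (the 1 called lower is not drawn), placed by its log2 fold change of FPKM + 1 (piPSC minus PEF, vertical axis) and its role (horizontal axis, with the number tested); colours give the limma result, black bars the median of a role and the dashed line the median of all 12428 genes tested. The medians of the 60S, SSU and box H/ACA groups (1.63, 1.45 and 1.93) lie well above the dashed line at 0.20.

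Factors of the SSU processome and of 40S assembly formed the largest role, with 36 genes, all tested. Of these, 25 (69.4%) were called higher, beside 20.2% of all genes tested. With no fold threshold 33 passed the adjusted p as higher, beside 30.3% of all genes, and none as lower. The median log2 fold change was 1.45. HEATR1, which belongs to the group of proteins that bind the precursor first and link it to its transcription, measured 7.39, 3.99 and 4.38 FPKM in PEF5, PEF7 and PEF8 and 41.5, 21.5 and 39.2 FPKM in piPSC5, piPSC7 and piPSC8. The groups did not overlap, and the lowest piPSC value was that of line 7. HEATR1 rose by 2.47 ± 0.32 on the log2 scale (SE; limma, adjusted p = 0.00146). WDR3, a WD repeat protein of the processome, went from 12.2, 9.15 and 6.08 FPKM to 62.9, 45.8 and 67.5 FPKM (2.59 ± 0.27, limma adjusted p = 0.000758). This was the largest change of the role.

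UTP20, a very large scaffold protein of the pre-40S particle, measured 3.61, 2.00 and 2.42 FPKM in the PEFs and 19.1, 8.43 and 23.5 FPKM in the piPSCs. The spread among the piPSCs was wide, since piPSC7 stood at less than either other line, and the change of 2.21 ± 0.39 had an adjusted p of 0.00426 in limma. Another gene model lies inside UTP20 on the same strand over 13820 bp, so fragments there may have been shared or dropped in counting. RRP9, a protein of the U3 snoRNP that directs the early cuts, was at 27.5, 18.8 and 26.4 FPKM against 114, 111 and 132 FPKM. It rose 4.82-fold on the scale of FPKM + 1 (limma, adjusted p = 0.000382). PDCD11 (also RRP5), which acts in the maturation of both subunits, rose by 2.39 ± 0.29, and NOC4L, a partner of NOP14 in 40S assembly, by 2.26 ± 0.21 (limma, adjusted p = 0.00118 and 0.000472). BMS1, the GTPase of the processome, was at 9.59, 6.27 and 8.78 FPKM in the PEFs and at 41.0, 21.4 and 41.7 FPKM in the piPSCs, with piPSC7 again lowest. UTP4 (1.51 ± 0.23), WDR43 (1.85 ± 0.22) and NOL6 (1.49 ± 0.30), further processome proteins, were called higher as well (limma, adjusted p = 0.0024, 0.00101 and 0.00677).

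The 3 members of this role that did not pass were RIOK2, a kinase of late 40S maturation, UTP11 and RRP36. UTP11 lay at 43.0, 36.0 and 50.4 FPKM in the PEFs and 45.9, 42.5 and 54.7 FPKM in the piPSCs, so the groups overlapped. RRP36 was at 21.8, 24.2 and 24.2 FPKM against 18.7, 18.3 and 16.0 FPKM. Its groups did not overlap, with every piPSC library lower, and its adjusted p was 0.0608 in limma. Members that passed with under 2-fold changes included BUD23, the methyltransferase of 18S rRNA, at 76.3, 72.8 and 78.4 FPKM against 104, 111 and 181 FPKM.

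**Figure D2:**
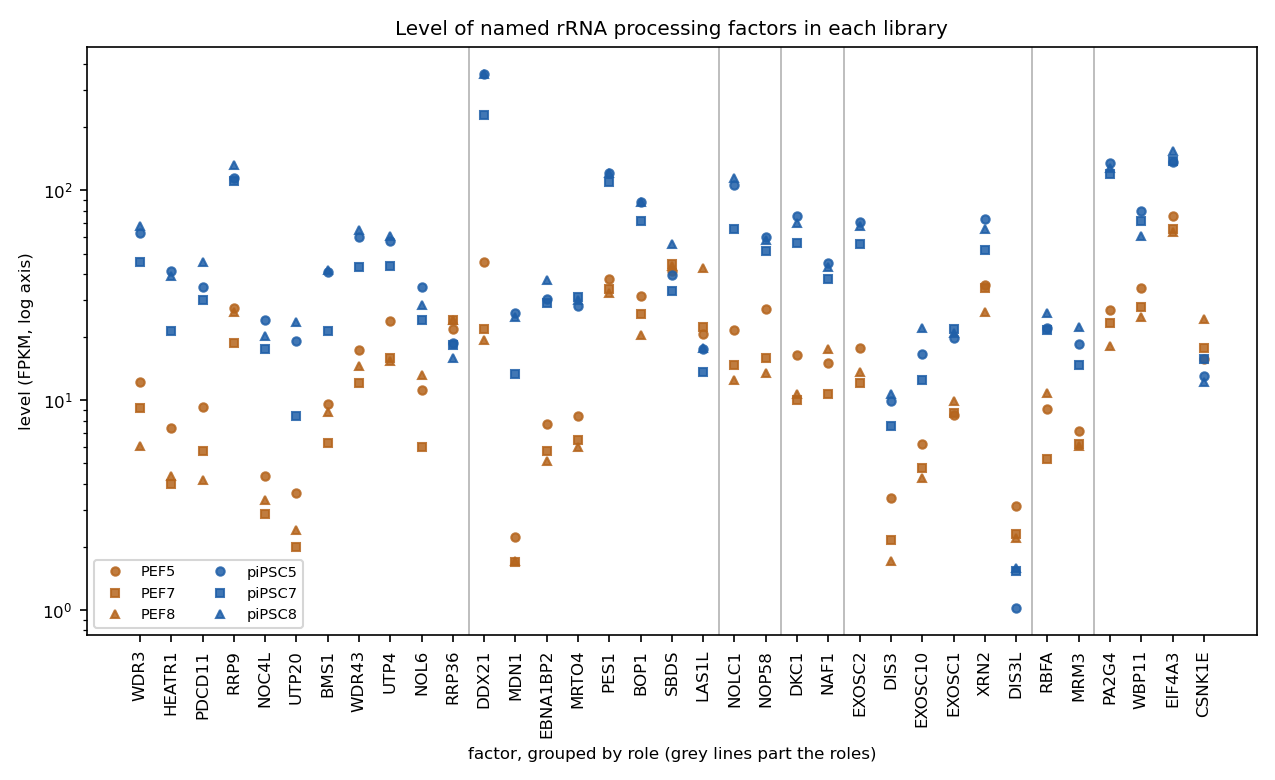
Points are the FPKM of single libraries (vertical log axis) for the named factors, grouped by role (horizontal axis); brown marks PEF, blue piPSC, and the shapes mark lines 5, 7 and 8. For DDX21 the piPSC libraries lie between 228 and 359.9 FPKM and the PEF libraries between 19.3 and 45.8 FPKM, while for SBDS the PEF values lie within the range of the piPSC values.

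Factors of 60S assembly and of the internal spacers numbered 18, of which 12 (66.7%) were called higher, beside 20.2% of all genes tested. By adjusted p alone 14 passed as higher, beside 30.3% of all genes, and none as lower. The median log2 fold change was 1.63. DDX21, a nucleolar RNA helicase that works on the precursor and on its transcription, had the largest increase of all members. It measured 45.8, 21.8 and 19.3 FPKM in PEF5, PEF7 and PEF8 and 359.9, 228 and 359.9 FPKM in piPSC5, piPSC7 and piPSC8. PEF5 was thus the highest of the PEF libraries and piPSC7 the lowest of the piPSC libraries, far apart from each other, and the gene rose by 3.48 ± 0.36 on the log2 scale (limma, adjusted p = 0.000712). MDN1, the giant ATPase that strips assembly factors from the growing 60S particle, came next with 2.23, 1.70 and 1.71 FPKM against 26.1, 13.3 and 25.0 FPKM (2.91 ± 0.28, limma adjusted p = 0.000602).

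PES1 and BOP1, partners in the complex that readies the 60S precursor for processing of its internal spacers, both rose. PES1 was at 37.9, 33.9 and 32.3 FPKM in the PEFs and 121, 110.2 and 120.5 FPKM in the piPSCs, and BOP1 at 31.3, 25.9 and 20.4 FPKM and 88.5, 71.4 and 87.8 FPKM. Their changes were 1.73 ± 0.13 and 1.65 ± 0.20 (limma, adjusted p = 0.000329 and 0.00108). The reading for BOP1 carries a limit, because HSF1 lies over 20777 bp on its opposite strand and the strand setting of the counting is not given. The same limit holds for all 31 factors that overlap a protein-coding gene on the opposite strand, MRTO4, DIS3, DIS3L and PIH1D1 among them. MRTO4, which holds the place of a stalk protein on the immature subunit, rose by 1.96 ± 0.17, and EBNA1BP2, a nucleolar assembly factor, by 2.22 ± 0.20 (limma, adjusted p = 0.000438 and 0.000441).

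The role also held 4 genes that did not pass. SBDS, which helps to free the new 60S subunit for translation, was at 41.4, 44.5 and 43.7 FPKM in the PEFs and 39.7, 33.3 and 55.3 FPKM in the piPSCs, so the PEF values lay within the piPSC range (-0.04 ± 0.20, limma adjusted p = 0.866). WDR55 measured 17.8, 15.8 and 16.1 FPKM against 15.2, 14.3 and 18.2 FPKM (limma, adjusted p = 0.762). LAS1L, which cuts the second internal spacer, was at 20.6, 22.4 and 42.7 FPKM against 17.5, 13.7 and 17.7 FPKM. Every piPSC library was lower than every PEF library, PEF8 was the highest by far, and the change of -0.70 ± 0.29 did not pass (limma, adjusted p = 0.0848). NOL8, a nucleolar RNA-binding protein, was the other gene that did not pass (limma, adjusted p = 0.0555).

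Among the snoRNP proteins, those of the box H/ACA class, which convert uridines to pseudouridines, both rose. DKC1, the pseudouridine synthase, was at 16.5, 10.0 and 10.7 FPKM in the PEFs and 75.3, 56.1 and 70.2 FPKM in the piPSCs (2.37 ± 0.23, limma adjusted p = 0.000552). NAF1, an assembly factor of the same particles, was at 15.1, 10.8 and 17.6 FPKM against 45.1, 37.9 and 43.4 FPKM (1.5 ± 0.21, limma adjusted p = 0.00176). In the box C/D class, which methylates ribose, the core protein NOP58 and the chaperone NOLC1 rose, and the assembly helpers PIH1D1 and PIH1D2 did not pass. NOP58 measured 27.3, 15.9 and 13.4 FPKM against 59.8, 51.7 and 58.0 FPKM, and NOLC1 measured 21.7, 14.7 and 12.6 FPKM against 106, 65.8 and 114 FPKM. The respective changes were 1.59 ± 0.26 and 2.47 ± 0.28 (limma, adjusted p = 0.00346 and 0.000975). PIH1D1 was at 7.45, 8.16 and 9.31 FPKM in the PEFs and at 11.2, 11.1 and 10.6 FPKM in the piPSCs, so even there the groups did not overlap (limma, adjusted p = 0.0927).

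The exosome and the trimming nucleases held 13 factors, with 6 (46.2%) called higher, beside 20.2% of all genes tested. By adjusted p alone 9 passed as higher, beside 30.3% of all genes, and the median log2 fold change was 0.97. EXOSC2, a subunit of the cap that binds RNA, was at 17.8, 12.1 and 13.7 FPKM against 70.4, 55.6 and 67.4 FPKM and rose most (2.08 ± 0.19, limma adjusted p = 0.00047). The nucleases DIS3 and EXOSC10 rose by 1.61 ± 0.25 and 1.55 ± 0.25, and EXOSC1, another cap subunit, by 1.12 ± 0.15 (limma, adjusted p = 0.00284, 0.00314 and 0.00149). XRN2, which digests RNA from the 5′ end, went from 35.5, 34.3 and 26.3 FPKM to 73.4, 52.2 and 65.6 FPKM, a change of 0.97 ± 0.19 that passed the adjusted p (0.0069, limma) and fell just short of 2-fold. KIZ lies over XRN2 on the same strand over 85265 bp, so fragments there may have been shared or dropped in counting. DIS3L, the DIS3 relative of the cytoplasmic exosome, was at 3.14, 2.30 and 2.19 FPKM in the PEFs and 1.02, 1.53 and 1.58 FPKM in the piPSCs. The direction is thus opposite in value to that of DIS3, without overlap, but it did not pass (-0.58 ± 0.23, limma adjusted p = 0.0697). ISG20, an interferon-induced nuclease, was listed at 0 in PEF5 and PEF7, at 3.20 FPKM in PEF8 and at no more than 0.322 FPKM in the piPSCs.

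All 4 factors for mitochondrial rRNA passed as higher, beside 30.3% of all genes tested, 2 of them at 2-fold or more, beside 20.2%. RBFA, which acts on the small mitochondrial subunit, was at 9.09, 5.25 and 10.8 FPKM against 22.2, 21.7 and 26.0 FPKM, and MRM3, a methyltransferase of the large rRNA, at 7.15, 6.16 and 6.05 FPKM against 18.6, 14.7 and 22.3 FPKM. Their changes were 1.42 ± 0.26 and 1.37 ± 0.20 (limma, adjusted p = 0.00503 and 0.00208). Of the RNase P and MRP subunits, POP4 passed at 0.90 ± 0.19 (limma, adjusted p = 0.00818), and RPP25 did not, with 1.24, 0.312 and 2.66 FPKM in the PEFs and 1.64, 2.08 and 7.27 FPKM in the piPSCs (limma, adjusted p = 0.218).

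The 21 other carriers of the term, most of them better known for work outside the nucleolus, differed the least. Of 17 tested, 5 (29.4%) were called higher, beside 20.2% of all genes tested, and 1 lower, beside 16.7%. The median log2 fold change was 0.56, beside 0.20 over all genes tested. PA2G4, a growth-regulated RNA-binding protein, measured 27.0, 23.4 and 18.1 FPKM in the PEFs and 135, 119.8 and 129 FPKM in the piPSCs. It had the lowest adjusted p of all members (2.45 ± 0.18, limma adjusted p = 0.000275). WBP11, a splicing factor, rose by 1.26 ± 0.18, and EIF4A3, a helicase of the exon junction complex, by 1.07 ± 0.14 (limma, adjusted p = 0.00203 and 0.00145). CHD7 and SUV39H1, a chromatin remodeller and a histone methyltransferase, were the other genes called higher.

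CSNK1E, a casein kinase, was at 15.7, 17.8 and 24.5 FPKM against 13.1, 15.7 and 12.2 FPKM and did not pass (limma, adjusted p = 0.107). LAS1L, DIS3L, RRP36 and CSNK1E passed as lower when each library was rescaled to the median ratio over genes, with adjusted p between 0.012 and 0.0323 in limma, so their calls depend on the scaling.

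**Figure D3:**
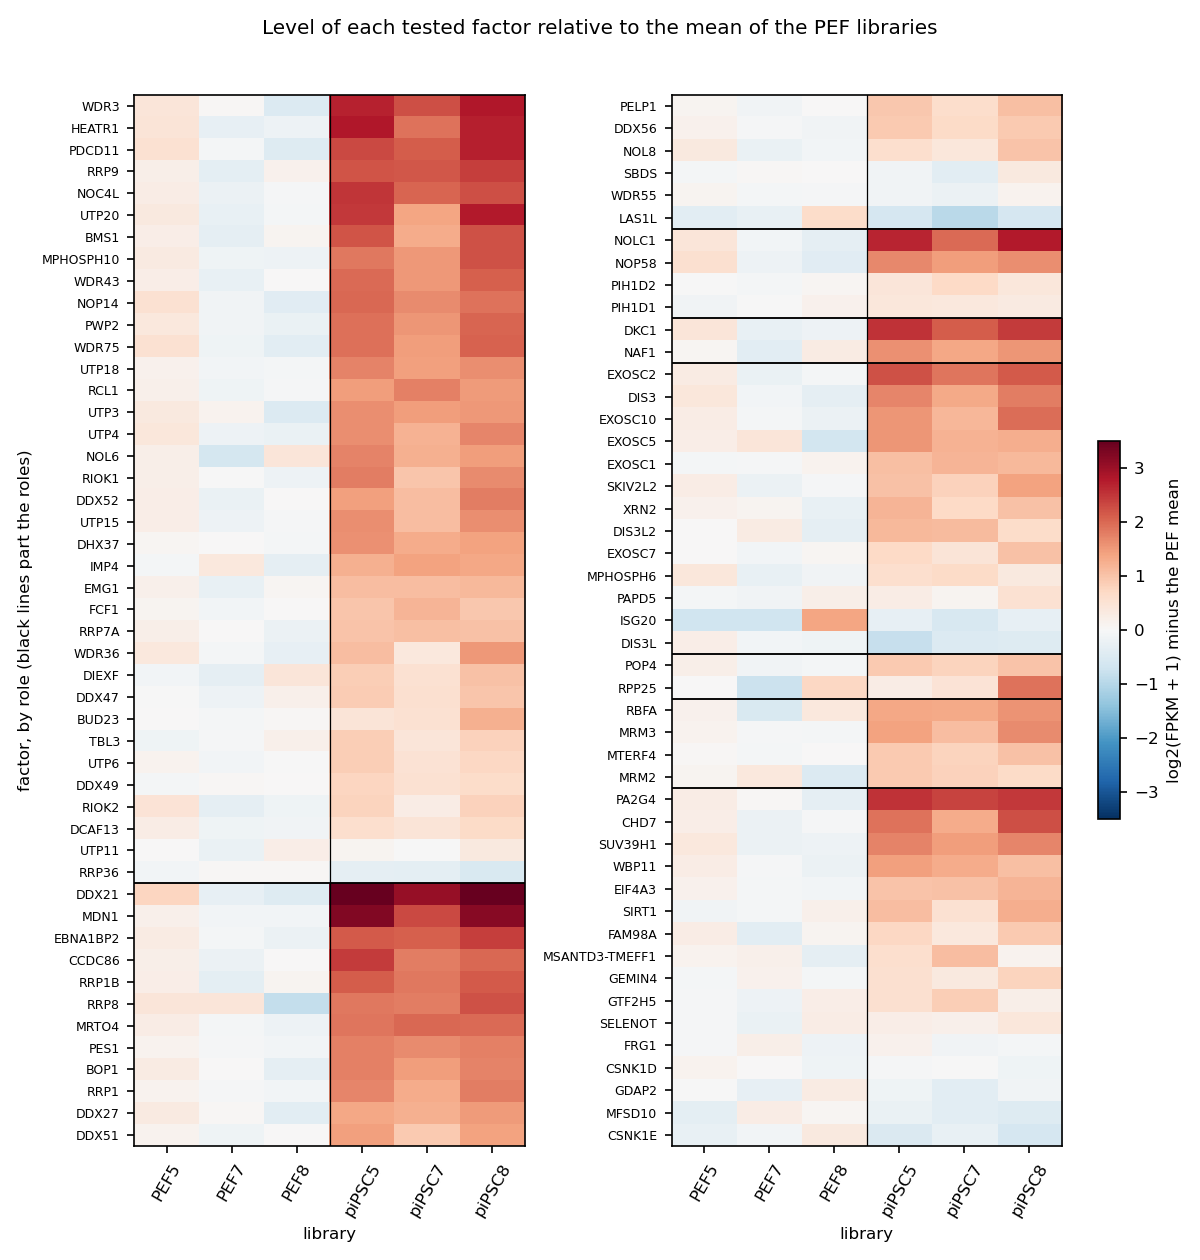
Rows are the tested factors by role (the 1 called lower is not drawn), columns the 6 libraries, and colour is log2(FPKM + 1) minus the mean of the PEF libraries (red higher, blue lower). The piPSC columns are red for most factors, piPSC7 is paler than piPSC5 and piPSC8 in many rows of the SSU processome, and the blue rows include LAS1L, DIS3L and CSNK1E.

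Of the 32 members described as ribosomal proteins, 17 had a mean under 0.5 FPKM and were not tested. Of the other 15, 10 (66.7%) were called higher, beside 20.2% of all genes tested, and none lower. Their median log2 fold change was 1.26. ENSSSCG00000013889, described as the 60S protein L18a, was at 52.8, 92.4 and 43.3 FPKM in the PEFs and 171, 202 and 199.7 FPKM in the piPSCs (1.66 ± 0.28, limma adjusted p = 0.00388). Here PEF7 was the highest PEF library, unlike in most factors. ENSSSCG00000002045, described as the 40S protein S3a, had 3.49, 4.35 and 2.27 FPKM against 11.8, 15.3 and 9.97 FPKM, and RPS3A itself is a separate gene of the table, so fragments may have been shared between the copies. ENSSSCG00000018018, described as L17, lies within UTP4 on the same strand over 1673 bp and rose by 1.67 ± 0.29 (limma, adjusted p = 0.00388), so the fragments of both genes may not be separable. ENSSSCG00000034514, described as L35a, is among the 10 called although it had 0 fragments in each PEF library. In the piPSCs the smallest counts that fit its values are 2, 1 and 1, under the limit of 3 fragments that a count of 0 allows. A longer gene length would give larger counts, and no fold is given for it. The 8 RPL and RPS genes left out by name had 7 (87.5%) called higher and a median log2 fold change of 1.39.

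Set line by line, each piPSC line against its own PEF line, the factors gave similar shifts. At least 2-fold higher on the scale of FPKM + 1 were 53 of 96 factors in line 5, 54 in line 7 and 63 in line 8, beside 21.9%, 24.9% and 23.8% of all genes tested. The medians of the log2 ratios were 1.12, 1.10 and 1.26 for the factors and 0.21, 0.24 and 0.08 for all genes. In every line at once, 55 of the 111 members (47 of the factors) were at least 2-fold higher and none at least 2-fold lower, where 12.8% of all genes were higher and 11.9% lower by this rule. Each of these ratios sets a single library against another, so they carry no test.

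The summed level of the 100 factors was 1470 FPKM in PEF5, 1229 FPKM in PEF7 and 1299 FPKM in PEF8, and 3519.8 FPKM in piPSC5, 2930.2 FPKM in piPSC7 and 3707 FPKM in piPSC8. The ratio of the group means was 2.54, and the exact two-sided permutation test gave p = 0.1, which is the smallest p that 3 against 3 allow. As a share of all fragments, the factors took 0.483%, 0.400% and 0.426% in the PEFs and 1.23%, 0.975% and 1.28% in the piPSCs. The ratio of summed levels was 2.12 when the libraries were rescaled to the median ratio and 2.03 when rescaled to equal sums, so its size depends on the scaling.

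Within each group a single end of the order was shared by most factors. PEF5 was the highest PEF library in 63 of 96 factors (65.6%), against 37.9% of all genes tested, and piPSC7 the lowest piPSC library in 72 (75%), against 38% of all genes. The other ends were more divided, with PEF7 lowest in 46 and PEF8 in 38 factors, and piPSC8 highest in 50 and piPSC5 in 33. Among the 24 longest factors, of 5885 to 16767 bp, piPSC7 was lowest in 19, and among the 24 shortest, of 643 to 2195 bp, in 14. Across the 96 factors the deviation of piPSC7 from the other piPSC libraries had a Pearson correlation of -0.38 with the log2 length of the gene and a Spearman correlation of -0.34. Across all genes tested, which share the same libraries, these were -0.04 and -0.14. The deviation of piPSC5 had the opposite sign, with 0.36 and 0.33 across the factors and 0.04 and 0.12 across all genes. Each deviation is taken from the other piPSC libraries, so they cancel out and the opposite sign is no separate result. When line 7 was left out, 55 factors were called higher, beside 17.7% of all genes tested.

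Of 10 tested genes of growth and division, PEF5 was the highest PEF library in 8, beside 37.9% of all genes tested. The lowest piPSC library was piPSC7 in 4, beside 38% of all genes, piPSC5 in 3 and piPSC8 in 3. MKI67, a marker of cycling cells, was at 3.83, 0.328 and 0.618 FPKM in PEF5, PEF7 and PEF8 and at 18.9, 14.0 and 15.9 FPKM in the piPSCs, and MCM2, a part of the replicative helicase, at 18.4, 1.51 and 4.18 FPKM and 75.7, 56.5 and 84.3 FPKM. In both, PEF5 stood over the other PEFs and piPSC7 under the other piPSCs, though most of the 10 genes did not have piPSC7 lowest. Of the 10 genes, 8 were called higher and 1 lower in the piPSCs, beside 20.2% and 16.7% of all genes tested. The lower one was porcine MYC, whose product is known to drive many genes of ribosome production, with 50.9, 58.9 and 6.95 FPKM in the PEFs and 1.42, 1.05 and 0.267 FPKM in the piPSCs (-3.98 ± 0.78, limma adjusted p = 0.00634). Its binding partner MAX did not pass (-0.05 ± 0.15, limma adjusted p = 0.81). How much of the cMyc transgene was counted as porcine MYC, and the part of division rate in the factors' levels, was not tested.

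**Figure D4:**
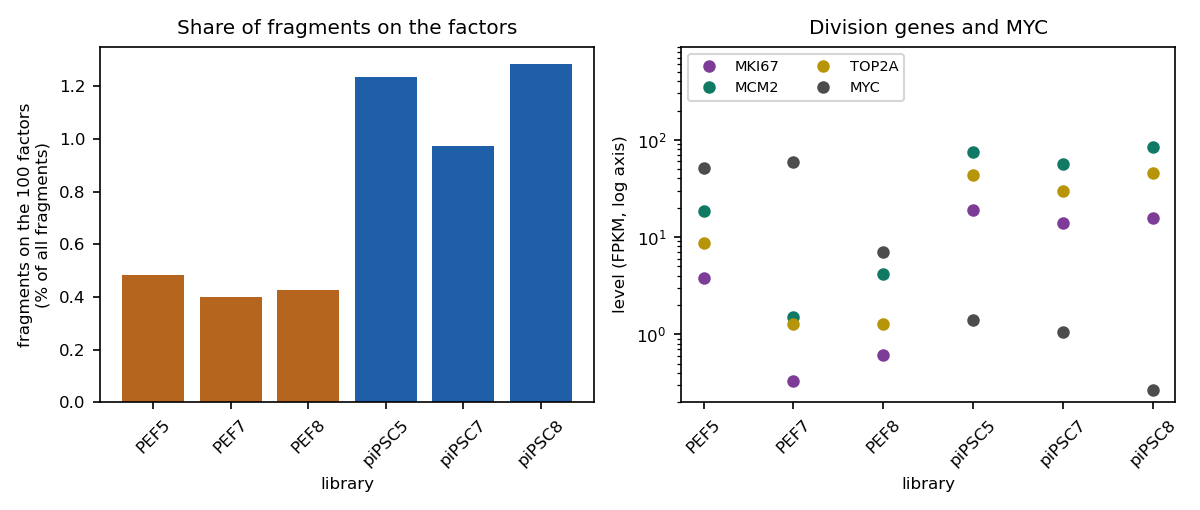
Left, bars give the share of all fragments that fell on the 100 factors in each library (percent, from 0), between 0.400% and 0.483% in the PEFs and between 0.975% and 1.28% in the piPSCs. Right, points give the FPKM (log axis) of the division genes MKI67, MCM2 and TOP2A, highest among the PEFs in PEF5, and of MYC, which lies under 1.5 FPKM in each piPSC library.

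Genes of ribosome production that do not carry the term were mostly higher in the piPSCs too. The role lists held 138 such genes, of which 133 were tested and 81 (60.9%) were called higher, beside 20.2% of all genes tested. None was called lower, and the median log2 fold change was 1.20. FBL, the methyltransferase of the box C/D particles, was at 39.9, 34.3 and 25.0 FPKM in the PEFs and 289.7, 326 and 364 FPKM in the piPSCs (3.29 ± 0.21, limma adjusted p = 0.000196). NPM1 and NCL, the abundant nucleolar proteins nucleophosmin and nucleolin, rose by 2.65 ± 0.22 and 2.36 ± 0.28, and GAR1, the partner of DKC1 that takes the place of NAF1, by 2.61 ± 0.30 (limma, adjusted p = 0.000382, 0.00103 and 0.000932). EIF6, the factor that SBDS helps to remove, was at 103, 99.9 and 103 FPKM against 85.5, 99.8 and 99.1 FPKM (-0.10 ± 0.13, limma adjusted p = 0.529). NOP56, the core partner of NOP58 and FBL, was listed at no more than 0.833 FPKM in any library and was not tested, while NOP58 was at 13.4 FPKM or more in each. REXO2, a mitochondrial oligoribonuclease, was the one gene of these lists that passed as lower (-1.0 ± 0.31, limma adjusted p = 0.0348).

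For the transcription of rRNA, 19 genes of RNA polymerase I and its factors were tested, with 10 (52.6%) called higher, beside 20.2% of all genes tested. By adjusted p alone 17 passed as higher, beside 30.3% of all genes, and the median was 1.10. POLR1B, its second largest subunit, was at 12.1, 9.26 and 9.95 FPKM against 43.1, 26.3 and 38.5 FPKM, and UBTF, the factor that keeps rDNA open, at 12.8, 10.4 and 10.2 FPKM against 18.7, 14.2 and 18.9 FPKM. Both passed, POLR1B at 1.67 ± 0.22 and UBTF at 0.58 ± 0.18 (limma, adjusted p = 0.00162 and 0.0359). In the list of RNA polymerase III and 5S rRNA, 8 of 18 genes (44.4%) were called higher and the median was 0.76.

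**Figure D5:**
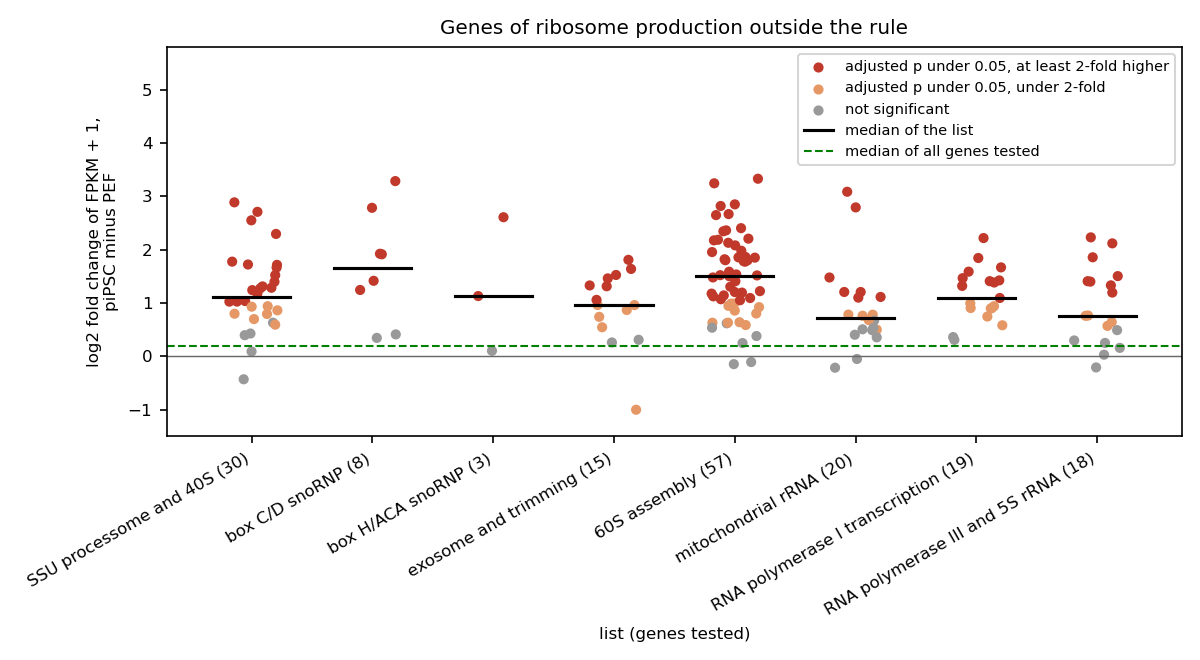
Points are genes of ribosome production without the rRNA processing term, by their log2 fold change of FPKM + 1 (piPSC minus PEF, vertical axis) in each list (horizontal axis, with the number tested); colours give the limma result, bars the median of a list and the dashed line that of all genes tested. Medians run from 0.72 for the mitochondrial list to 1.67 for the box C/D list, and no gene was called lower.

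The factors lie on 19 chromosomes. They also share terms of location and function, which are related to the term that chose them and so are no separate result. The term for the nucleolus stood on 73 of the 100 factors, beside 4.59% of all genes with a location term, and the term for binding of poly(A) RNA on 62 of 91 (68.1%), beside 6.94%. Of the tested factors with the nucleolus term 42 of 71 (59.2%) were called higher, and of those without it 12 of 25 (48%), beside 20.2% of all genes tested. The difference between these groups of factors was not tested. Of the 100 factors, 40 overlap another protein-coding gene of the table, 31 of them on the opposite strand, and RRP1B, WDR43, NOP58 and DKC1 hold snoRNA genes in their own span.

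Promoters were compared because the factors moved together. The 300 bases before the RefSeq gene start were read for 97 of the 100 factors and for 13149 genes of the table in all. The median GC content was 59.3% in both. CACGTG, the E-box letters that MYC and its relatives are known to bind, which read the same on both strands, stood in 14.4% of the factors' windows and 8.18% of all windows. It stood in 6 of the 54 factors called higher (11.1%) and in 8 of the 43 others (18.6%). CCGGAAG, the core of ETS sites, searched on both strands, stood in 14.4% and 9.86%, and CCAAT in 36.1% and 35.4%. These are matches of letters, and 300 bases before an annotated start may miss the start used in these cells.

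Of the called factors with the E-box letters, the 3 with the largest increases are shown, with the letters in capitals, beside DDX21, the member with the largest increase, whose window lacks them. The windows are from RefSeq's annotation of Sscrofa11.1 and are written 5′ to 3′ on the strand of the gene. That of EBNA1BP2 is chr6:168049186-168049485 (plus strand), that of UTP20 chr5:82913177-82913476 (minus strand), that of WDR75 chr15:93980754-93981053 (plus strand) and that of DDX21 chr14:72039685-72039984 (plus strand).
EBNA1BP2: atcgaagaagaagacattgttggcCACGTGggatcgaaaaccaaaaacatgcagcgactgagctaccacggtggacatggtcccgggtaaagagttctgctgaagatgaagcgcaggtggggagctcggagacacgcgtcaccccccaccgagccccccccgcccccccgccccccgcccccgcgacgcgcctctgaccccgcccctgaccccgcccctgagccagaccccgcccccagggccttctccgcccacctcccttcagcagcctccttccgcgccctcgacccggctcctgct
UTP20: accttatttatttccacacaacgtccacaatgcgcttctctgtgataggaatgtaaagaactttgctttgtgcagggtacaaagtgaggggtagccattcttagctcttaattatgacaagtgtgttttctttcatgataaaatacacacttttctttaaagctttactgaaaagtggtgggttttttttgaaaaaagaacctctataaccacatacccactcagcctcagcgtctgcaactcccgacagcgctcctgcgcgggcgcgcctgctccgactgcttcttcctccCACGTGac
WDR75: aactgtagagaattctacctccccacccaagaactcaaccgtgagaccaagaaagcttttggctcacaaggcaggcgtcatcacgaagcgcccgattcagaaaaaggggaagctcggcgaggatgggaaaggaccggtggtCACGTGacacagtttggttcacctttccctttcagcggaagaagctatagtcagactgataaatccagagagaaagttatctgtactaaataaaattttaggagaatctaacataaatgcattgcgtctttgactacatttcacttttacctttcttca
DDX21: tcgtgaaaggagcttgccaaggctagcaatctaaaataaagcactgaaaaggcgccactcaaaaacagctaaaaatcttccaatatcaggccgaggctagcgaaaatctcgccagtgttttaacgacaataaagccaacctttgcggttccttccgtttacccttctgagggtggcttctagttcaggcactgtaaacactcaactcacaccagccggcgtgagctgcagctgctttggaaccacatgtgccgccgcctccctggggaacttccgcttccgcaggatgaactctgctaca
The E-box letters begin 8 bases before the start of UTP20, 159 bases before that of WDR75 and 276 bases before that of EBNA1BP2. WDR75, a further processome protein, was at 6.79, 3.89 and 3.18 FPKM in the PEFs and 19.5, 13.9 and 21.8 FPKM in the piPSCs (1.82 ± 0.29, limma adjusted p = 0.00308). The genes shown were picked for their increases, so they cannot tell whether the letters go with a rise.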

How the data were processed

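Poly-A RNA of the 6 libraries was read from both ends over 150 bp. The authors deposited FPKM values per gene for 18007 genes. The submitters' processing notes name HISAT2 2.1.0, Bowtie2 2.2.3, HTSeq 0.6.0 and Sscrofa11.1 without their roles, and the strand setting and annotation release are not given in the sources used here. Every FPKM value was a whole multiple of 1 fragment, to within 0.001, given a gene length and a library total, so fragments were recovered for 18007 genes, and the table held between 98.9% and 99.3% of the totals. The shortest length that fitted was taken, so the recovered counts are the smallest that fit and may be too low for genes with few fragments. In a simulation, 437 of 490 genes came back exactly, and 334 of the 338 with a mean of at least 0.5 FPKM. The simulated lengths did not cover those of the longest factors or the shortest members, so recovery at these lengths was not tested. A count of 0 allows up to 3 fragments, counting error only.

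The comparison was fitted with limma 3.58.1 in R 4.3.3 (lmFit, eBayes with trend, two-sided) on log2(FPKM + 1) over the 12428 genes with a mean of at least 0.5 FPKM, with Benjamini-Hochberg adjustment over all of them, and tested on simulated data. Fold changes are on this scale, which understates those of low genes. A called gene had an adjusted p below 0.05 together with a change of 2-fold or more. Each line number joins a PEF line with the piPSC line made from it, and the deviations of same-numbered libraries from their group mean had correlations of 0.0921, 0.0946 and 0.08. The study's statistics section names an unpaired test without tying it to the RNA-seq values, and its expression comparisons set each piPSC line against its own PEF line. The fit here was unpaired, with the line as a block among the alternatives and the ratios of each line given as well. Counts, sums and promoter letters were computed in Python 3.11.15. Of the identifiers, 6 were named from a reference name table, and further ones by protein description. The members and lists were chosen with earlier results of these data known. Named are core factors of the textbook pathway, in each role the 3 called members with the lowest adjusted p, the 5 largest increases, the 5 lowest log2 fold changes and untested factors. The 1 member that passed as lower is not reported here. Other genes were picked after their values were seen, as was the split into 100 factors and 32 ribosomal proteins. Columns of gene descriptions and ontology terms came with the table, and no columns of comparisons were used.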

Additional observations from a re-analysis of the deposited data

How the results depend on the processing

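Between 53 and 68 members and between 46 and 58 factors were called higher under all alternatives, beside 13.1% to 23.7% of all genes tested. The lowest counts came with rescaling, where the share of all genes called higher was 15.1% (median ratio) and 16% (equal sums). Scaling by the median ratio of genes moved the median of all genes from 0.20 to -0.01, and scaling to equal sums moved it to -0.06, while the factors' median stayed between 0.94 and 0.99 above it. The median over members was 1.40 with a pseudocount of 0.1, 0.97 without the filter, 0.99 with the median ratio, 1.05 with equal sums and 1.41 with voom on recovered fragments, and that over factors was 1.31, 1.08, 0.93, 0.93 and 1.31. Members passing as lower numbered 2 without the filter (RRP36 added) and 2 without the trend (DIS3L added), 5 with the median ratio and 6 with equal sums (MFSD10 added), all of them factors, and 3 were called lower with equal sums. At least 2-fold higher in every line were 33 members with the median ratio, against 55 without rescaling. By this rule 12.8% of all genes tested were higher without rescaling. The share after rescaling is not given here, so the 33 cannot be set against all genes. The summed ratio was 2.12 and 2.03. Causes were not tested.

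With the line as a replicate block, 64 members and 54 factors were called higher as before, beside 19.8% of all genes tested. WDR36, DDX49 and GEMIN4 no longer passed the adjusted p (0.0585, 0.0511 and 0.0881 in limma).

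Leaving out each library in turn, and line 7, gave 63 to 66 members and 53 to 56 factors called higher, 1 called lower, 69 to 82 members and 60 to 73 factors passing as higher, 1 passing as lower, medians of 1.17 to 1.27 and 1.13 to 1.25, 55 to 60 members 2-fold higher in every remaining line, and summed ratios of 2.42 to 2.71. The share of all genes called higher ran from 17.7% to 21.3% in these fits. For genes passing by adjusted p alone, or 2-fold higher in every remaining line, the shares of all genes in these fits are not given here. With all libraries 30.3% of all genes tested passed as higher, 21.5% passed as lower and 12.8% were 2-fold higher in every line. Of 585 values of the 39 named members, 573 kept direction and side of the threshold and 10 passed where they had not before. SBDS, at -0.04, was at -0.24 without piPSC8 and turned to 0.12 without piPSC7 and 0.14 without line 7. At 11010629 fragments in the shallowest library, genes with few fragments could not be judged.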
